A study of Dicentrarchus labrax with 35 samples.

Results

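The gonads described here came from European sea bass (Dicentrarchus labrax) that had grown slowly in their first months, some of which were then given full rations. Group S was sampled at time 1 (T1, 133 days post fertilization), and group SF at time 2 (T2, 332 days post fertilization in the sample labels, a few days different in the study's text). Of the 35 gonads of the series, 13 belonged to this comparison, 8 of group S and 5 of group SF, and all 24200 probes against sea bass sequences were followed. The samples were chosen by the group and replicate in their titles, so no measured value entered the choice.

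Group S held fish from the slow end of the size distribution, graded before their sex could be told, and their gonads were labelled as undifferentiated. Part of the same slow fish, kept in a tank of its own, was fed to satiation with more meals a day from T1 onwards, to speed up growth, and the testes of males among them formed group SF. Different fish were measured at T1 and at T2, each as a single gonad on a single array. Before T1 all fish were fed to satiation, and both groups had the same early thermal regime. The other groups used for comparison were F (7 fast-growing fish at T1, undifferentiated gonads) and 3 groups of 5 testes each at T2: FF (fast fish kept on full rations), FS (fast fish put on restricted food) and SS (slow fish put on restricted food). Each T2 group was a single tank, so tank and group cannot be told apart. Sex was known for the T2 fish, which were all males whose testes held no spermatozoa, but not for the undifferentiated gonads, so S fish that would have become females cannot be told apart from the others.

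During sex differentiation of a teleost gonad, germ cells and the somatic cells around them organise into an ovary or a testis. In the juvenile testis, Sertoli cells enclose germ cells in cysts, Leydig cells between the tubules make androgens, and spermatogonia multiply before meiosis begins. In the European sea bass this process depends on size more than on age, and temperature in early life is known to act on the proportion of males. The probes of the array were designed against cDNA clones and contigs (assemblies of overlapping clones). Each probe is named in the files by an identifier and by its clone or contig. The files do not pair these with gene names, and 0 of the probe names and 0 of the target names matched the RefSeq table of 30274 sea bass genes, so that genes, pathways and cell type markers are not named and the labelled tissues were not checked against markers. A level in a whole gonad also depends on which cells it holds, and fewer cells of a type and less RNA per cell cannot be told apart.

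Before any probe is described, 3 features of the arrays bear on every value. The SF arrays were brighter than the S arrays. Spots flagged by the scanner software as well above background made up 65.4 ± 7.69% (SD, n = 8) of an array in S and 84.4 ± 3.31% (SD, n = 5) in SF, with no overlap (74.4% at most in S, 80.8% at least in SF; exact permutation test, two-sided, p = 0.001554, adjusted over 3 measures of the arrays 0.002331). Control RNA was added to each sample at labelling, and its 10 probes (spike-in probes) lay 0.63 ± 1.47 (SD, n = 8) above the 75th percentile of the array in S and 1.09 below it in SF (mean -1.09 ± 0.63, SD, n = 5, log2; exact p = 0.034965, adjusted 0.034965). The S arrays lay on 3 slides and the SF arrays on 2 others, so slide and group cannot be told apart. Of the S arrays, S1 to S4 were scanned on the second day and S5 to S8 on the first, together with all SF arrays. Relative to the 75th percentile, the spike-in probes lay between -0.93 and -0.46 in S1 to S4, inside the SF range (-1.75 to -0.42). In S5 to S8 they lay between 0.83 and 2.82, so the higher S mean came from these arrays of 1 slide. With S arrays of the 2 days set against each other, 4 and 4, limma called 648 probes (9672 at an unadjusted p under 0.05). Values by scan day are given beside the results below that they touch, and those comparisons by day were chosen after seeing the data unless they concern the first day alone or day as a fixed block from S to SF. The 7 F arrays were scanned on the second day, and 4 of the 5 FF arrays (all but FF2) and all FS and SS arrays on the first.

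The first question was how many probes changed between the undifferentiated gonads of slow fish and the testes of slow fish after full feeding. Values are log2 levels after normexp background correction and quantile normalization of all 35 arrays, and limma was fitted to the 13 arrays, with a call at 1.5-fold or more and an adjusted p (Benjamini-Hochberg) below 0.01. In SF, 6219 of the 24200 probes differed from S (25.7%), of which 3918 rose (16.2%) and 2301 fell (9.51%). At an unadjusted p under 0.05 there were 12120 probes, and the smallest adjusted p was 2.33e-10. The arrays of the 2 groups did not overlap at 5918 probes (24.5%), with all SF arrays above all S arrays at 3736 (15.4%) and below them at 2182 (9.02%).

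The balance of rises and falls depended on how arrays were scaled. Rises made up 63.0% of the calls. The share was 49.1% with the processed signal scaled to the 75th percentile of each array (4854 rose, 5041 fell) and 48.1% with cyclic loess (3074 rose, 3319 fell). With arrays scaled by their spike-in level alone it was 93.9% (5031 rose, 326 fell), where the median change of all probes was 0.82 (log2). Relative to that median, 95.5% of the 2301 fallen probes were still lower and 100% of the risen probes higher, while relative to 0 only 62.5% of the fallen probes were lower. With cyclic loess 100% of the probes kept the sign of their change in both directions. In the scanner's processed signal 99.1% of the risen and 100% of the fallen probes did so.

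With quantile normalization, called falls were larger than called rises, and sizes were not compared under the other scalings. The median called rise was 2.09-fold and the median called fall 2.42-fold. Between S gonads the median SD was 0.25 (log2) at called rises and 0.49 at called falls, and its part in these sizes was not tested. At least 4-fold changes were found at 379 of the risen probes and 558 of the fallen ones, and at least 16-fold changes at 15 and 98. The 95% confidence interval of the change lay within 2-fold in either direction at 15657 probes (64.7%) and within 1.5-fold at 9172 (37.9%). For 3022 probes that were not called, a change of 2-fold or more remained inside the interval. Calls followed brightness. With the probes divided by level into 5 sets of 4840, calls made up 0.70% of the dimmest set, then 14.6%, 29.4% and 40.1%, and 43.7% of the brightest.

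**Figure D1:**
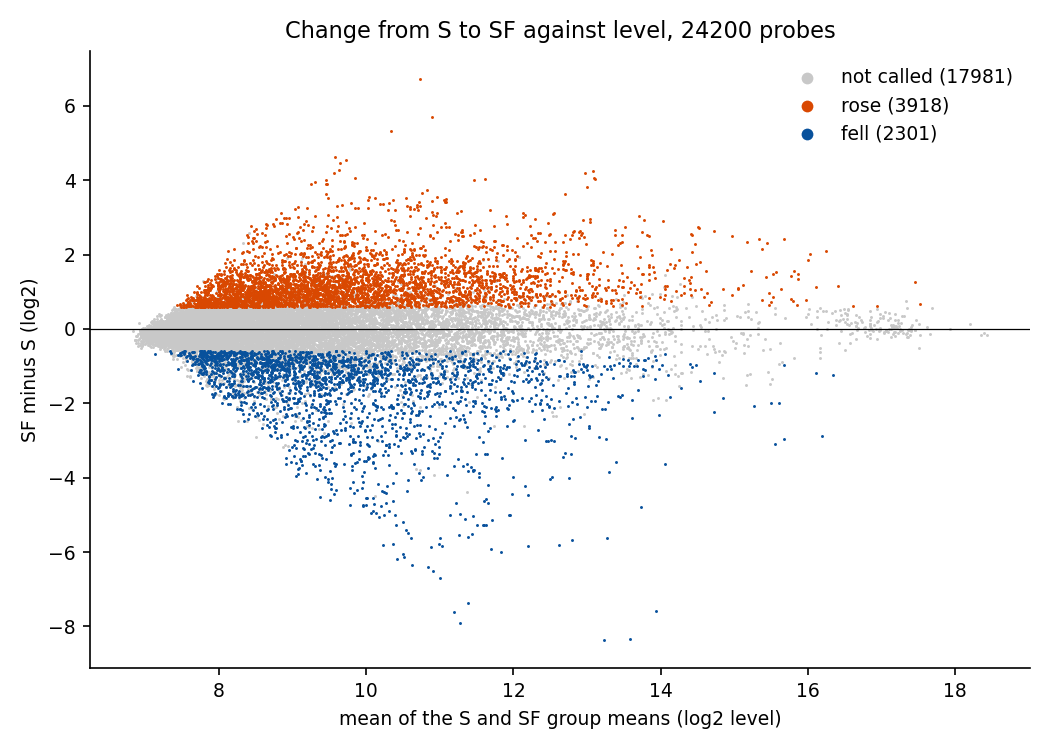
Change from S to SF (log2 of SF minus S, vertical axis) of each of the 24200 probes against its mean log2 level over both groups (horizontal axis); orange points rose, blue points fell, grey points were not called. The cloud closes towards the dim end, where 0.70% of the dimmest 4840 probes were called, and reaches further down (98 falls of at least 16-fold) than up (15 rises).

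Most sequences were read by more than 1 probe, which gives a check within each array. At least 1 probe was called for 3262 of the 11705 targets (27.9%). Of 6266 targets with 2 or more probes, 2066 had a called probe. All probes of the target were called in the same direction at 1291 of them (62.5%), 875 rising and 416 falling. Probes of a target were called in opposite directions at 5. All probes moved the same way, called or not, at 96.6% of the targets with a call, against 83.6% of all targets with 2 or more probes. Probes of 1 target share the array and the sequence and are no replicates of the change.

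By a rule based on size, 2 risen and 2 fallen probes are described by themselves, in each direction the largest change among probes measured on all 13 arrays with another probe of the target called the same way, and the largest bound among probes above background in 1 group alone. CUST_4507_PI416070213 was designed against contig SeabassC-CL284Contig1. Its log2 level in S was 10.24 at the lowest, 10.91 at the median and 11.29 at the highest. In SF it was 15.67 in SF1, 14.61 in SF2, 15.30 in SF3, 14.85 in SF4 and 14.91 in SF5, so that every SF testis lay far above every S gonad. The change was 4.19 (standard error 0.20, 18.3-fold, limma adjusted p = 7.2e-09). The target's other 2 probes rose by 4.02 and 4.05. In the groups with a fast start the level of CUST_4507_PI416070213 was 10.83 ± 0.16 in F (SD, n = 7). Among the testes it was 14.95 ± 0.71 in FF, 13.88 ± 1.03 in FS and 15.05 ± 0.27 in SS (each SD, n = 5), so that the FS mean was the lowest and the FS testes the most spread.

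CUST_3784_PI415922062, the only probe of clone cDN30P0001A07, was not well above background on any S array. Its S levels ran from 7.13 to 7.97 with a median of 7.31. The SF testes read 15.15 (SF1), 13.26 (SF2), 13.38 (SF3), 13.91 (SF4) and 14.78 (SF5). Levels thus went from not well above background in all 8 undifferentiated gonads to bright spots in all 5 testes, at least 104-fold (limma adjusted p = 2.95e-09). This is a bound, the SF mean set against, on each S array, the higher of 2 levels, its own and that of the dimmest probe still well above background there. The bound takes no account of the spread between gonads. The change itself was 6.73 (log2, 95% confidence interval 6.11 to 7.35). In F the probe was well above background on 1 of 7 arrays (F3, 8.83), and in FF, FS and SS on all 5 arrays each.

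Among the falls measured on every array, CUST_14589_PI416070213 of clone cDN27P0007K09 had the largest. It was among the bright spots of every S gonad, with a lowest level of 16.52, a median of 17.56 and a highest of 17.93. In the testes it read 8.52 in SF1, 9.28 in SF2, 9.73 in SF3, 8.88 in SF4 and 8.82 in SF5. The groups lay far apart, and the change was -8.36 (standard error 0.25, 329-fold lower in SF, limma adjusted p = 2.33e-10). The target's other 2 probes changed by -8.35 and -7.59. F gonads had a mean of 17.81 ± 0.48 (SD, n = 7), and the T2 groups FF, FS and SS had means of 9.43, 9.05 and 9.56, with 1 FF testis (FF4) at 12.

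The second fallen probe differed among the S fish themselves. CUST_4311_PI416070213 (contig SeabassC-CL268Contig1) was well above background on all 8 S arrays and on no SF array. Its S levels were 9.29, 10.06, 11.04 and 8.11 in S1 to S4 and 14.12, 12.45, 14.10 and 13.84 in S5 to S8. The gonads scanned on the first day were all higher than those of the second day. In SF it lay between 7.04 and 7.18. The S mean of 11.63 ± 2.35 (SD, n = 8) was 22.8-fold higher than the SF mean (limma adjusted p = 0.00199). The change was -4.51 (log2, 95% confidence interval -6.60 to -2.43), and the bound had the same size. The log2 difference between the means was -6.51 from the S gonads of the first day and -2.51 from those of the second. Slide and scan day run together among these gonads, and their part in the spread was not tested. The target's other 2 probes had larger changes, -7.91 and -7.62.

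**Figure D2:**
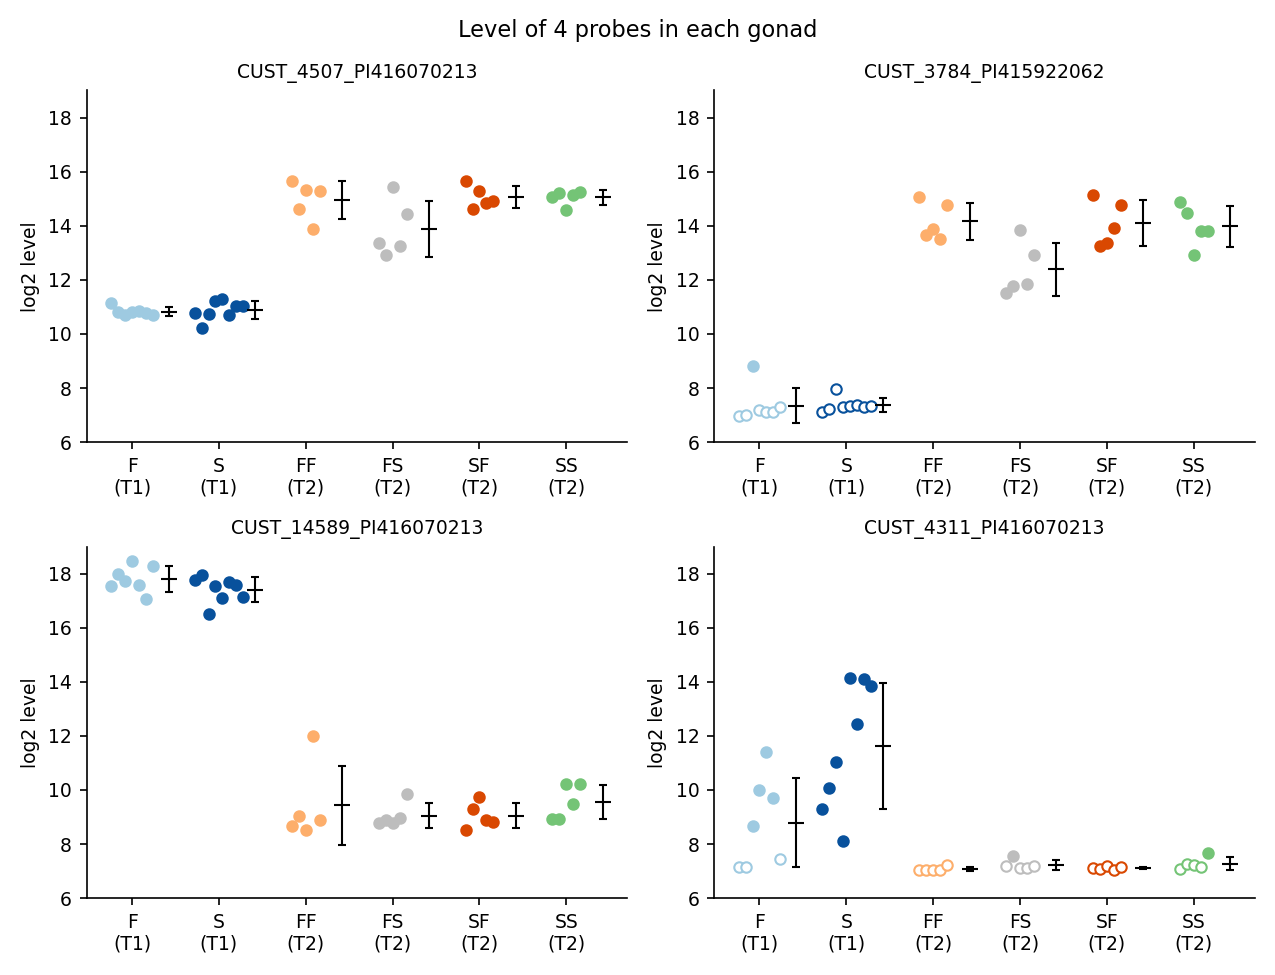
Log2 level (vertical axes) of 4 probes in each of the 35 gonads, by group; each point is 1 gonad, filled where the probe was well above background and open where it was not, and the bar beside each group is the mean with its SD. The 5 SF testes sit with FF and SS and away from S in all 4 panels. FS1, FS2, FS4 and FS5 lie below all SF testes for CUST_4507_PI416070213 and CUST_3784_PI415922062, and FS3 lies within their range. The S gonads spread from 8.11 to 14.12 for CUST_4311_PI416070213.

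The probes with large changes were then followed as a class through all gonads. In SF, 80 probes rose at least 8-fold, against 42 targets, and 246 fell at least 8-fold, against 113 targets. These classes were chosen on the S and SF arrays, so their levels in those groups are a description. The median level over the 80 risen probes lay between 8.16 (S7) and 9.03 (S3) in S and between 12.18 (SF1) and 12.65 (SF4) in SF. Over the 246 fallen probes it lay between 11.66 (S4) and 12.86 (S2) in S and between 7.88 (SF1) and 8.41 (SF3) in SF. The arrays of fast-start fish had no part in the choice. In F the 80 risen probes had a median level of 8.73 to 9.04 and in FF of 12.21 to 12.37, and in limma 74 of them (92.5%) were called as rising from F to FF, against 15.1% of all probes. The 246 fallen probes went from 10.75 to 12.08 in F to 7.85 to 8.22 in FF, with 159 (64.6%) called as falling, against 9.41% of all probes.

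**Figure D3:**
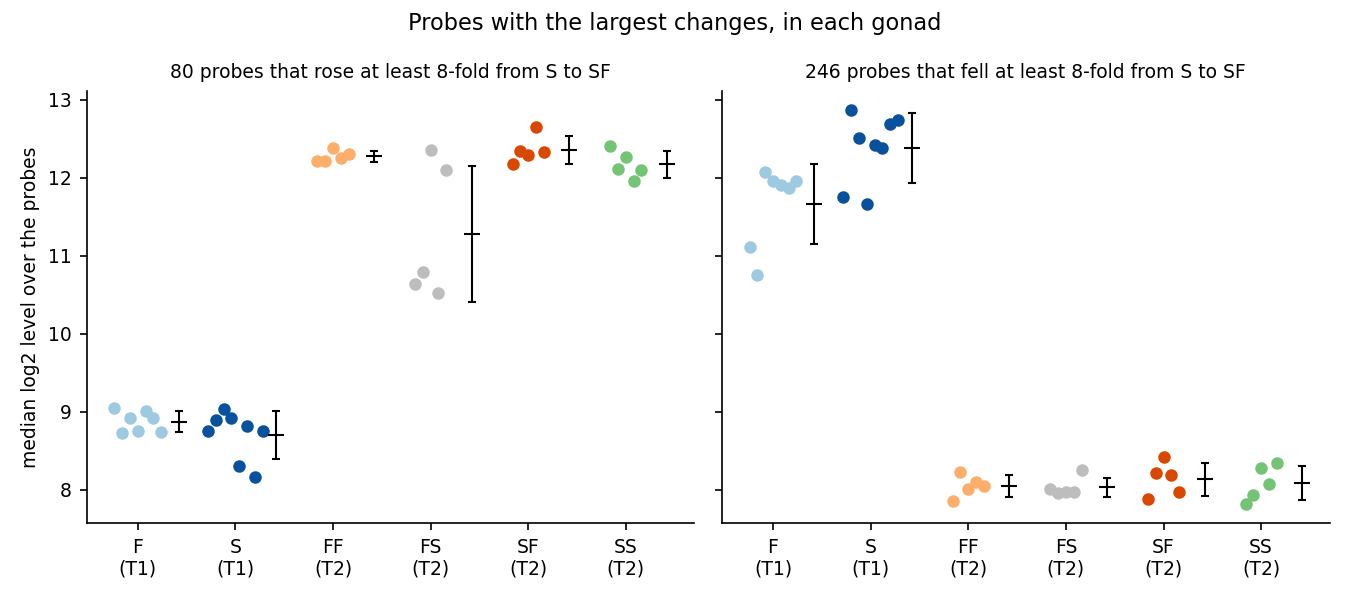
Median log2 level (vertical axis) over the 80 probes that rose at least 8-fold from S to SF (left) and the 246 that fell at least 8-fold (right), in each of the 35 gonads by group; each point is 1 gonad and the bar is the mean with its SD. The FF gonads, not used to choose the probes, lie between 12.21 and 12.37 on the left, while 3 of the 5 FS gonads lie between 10.52 and 10.79.

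S gonads differed widely among themselves at the probes that were low in SF. The SD between the 8 S gonads was above 1 (log2) at 179 of the 246 probes that fell at least 8-fold (72.8%), against 4.12% of all probes, and the median SD of this class was 1.40 in S and 0.27 in SF. For the 80 probes that rose at least 8-fold the order was the other way, with a median SD of 0.39 in S and 0.60 in SF. The fallen class was bright in S and dim in SF (median levels 12.31 and 8.16) and the risen class the reverse (8.85 and 12.25), and the part of brightness in these SDs was not tested. Of the 349 fallen probes with an SD above 1 in S, the gonad with the highest level was S5 at 120, S6 at 72, S1 at 44, S7 at 34, S8 at 33, S4 at 25, S3 at 20 and S2 at 1. The gonads scanned on the first day (S5 to S8, all on 1 slide) thus held the highest level at 259 of them (74.2%). Within the S gonads of 1 day the spread at the 246 probes was smaller, with an SD above 1 at 43.1% on the first day and 48.0% on the second, against 2.81% and 2.24% of all probes. Over all probes the median SD was 0.29 in S and 0.20 in SF, and within the S gonads of 1 scan day it was 0.23 (first day) and 0.19 (second day).

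As wholes, the 2 groups were well separated. The distance between their mean profiles was 139.56 (Euclidean, log2, over 24146 probes with a value on all 13 arrays), larger than for every other division of the 13 arrays (exact permutation test, p = 0.000777, the smallest that 1287 divisions can give). Arrays of 1 slide are not fully exchangeable with the others, which this test takes them to be. A principal component analysis of the 13 arrays gave 56.9% of the variation to the first component, on which S gonads lay between -73.1 and -35.2 and SF testes between 69.4 and 96.8. The second component held 14.6% and set S1 to S4 (15.9 to 62.6) apart from S5 to S8 (-55.8 to -17.8), the division of the S arrays by scan day, with the SF testes between -17.9 and 4.99. Against the 4 S gonads of the first day alone 6659 probes were called, and against the 4 of the second day, a comparison chosen after seeing the data, 6148. All 6219 called probes lay on their called side of both sets of S gonads, 85.6% of them by at least 1.5-fold. The probes were called on these same arrays, so these shares were largely built into the choice and are a description.

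The presence of signal was counted next. On all 13 arrays 11938 probes (49.3%) were well above background. Of these 37.5% were called, against 25.7% of all probes, with 2589 rising (21.7%, against 16.2%) and 1887 falling (15.8%, against 9.51%). On no S array but every SF array 795 probes were well above background. The bound on their rise was at least 2-fold for 113, at least 4-fold for 39 and at least 8-fold for 8, and 233 of them (29.3%) were called as rising, against 16.2% of all probes. As every SF array had to be above background and no S array, a rise was built into the choice. The reverse, above background on every S array and on no SF array, was found at 18 probes. A fall was likewise built into this choice. All 18 were called as falling, against 9.51% of all probes, with a bound of at least 2-fold for 18 and at least 4-fold for 10. The SF arrays also had more spots above background over the whole array (84.4% against 65.4%), and the part of this in the count was not tested. With the 4 S arrays of the first day alone the 2 counts were 1217 and 61, and with those of the second day 1662 and 38. On the F arrays 43.2 to 71.5% of all spots were well above background, against 56.4 to 74.4% in S. In F, 433 of the 795 probes (54.5%) were not above background on any array, against 15.6% of all probes. On all 7 F arrays 0 of them were above background, against 41.6% of all probes. In FF, 249 of the 795 (31.3%) were above background on all 5 arrays, against 66.0% of all probes, and 13 (1.64%) on none, against 12.98%. The 18 lost probes were above background on no FF array for 16 (88.9%), against 12.98% of all probes.

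The clone names begin with a prefix, cDN22 to cDN35, whose meaning is not given in the sources used here. Probes to cDN23 and cDN24 clones had the most rises and the fewest falls in percent. Of 1095 cDN23 probes, 251 rose (22.9%) and 27 fell (2.47%), with a median change of 0.14 (log2). Among 891 cDN24 probes, 220 rose (24.7%) and 33 fell (3.70%), with a median change of 0.24. Over all 24200 probes these shares were 16.2% and 9.51% and the median change was -0.01. The other prefixes had 9.15 to 14.4% rising and 5.14 to 13.4% falling, and the 7619 probes to contigs 22.0% and 11.4%.

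Level by level, the median of the cDN24 probes relative to that of all probes of the array was -0.70 to -0.57 in the 8 S gonads and -0.28, -0.26, -0.25, -0.20 and 0.01 in SF2, SF3, SF4, SF5 and SF1, with no overlap. For cDN23 it was -0.65 to -0.56 in S and -0.40 to -0.22 in SF, also without overlap. Rises exceeded falls for both prefixes in each of the 7 settings of background and scale compared, with 19.3 to 32.7% rising and 0.73 to 12.5% falling for cDN23 and 21.9 to 34.5% and 1.01 to 11.1% for cDN24. Over all probes 12.7 to 20.8% rose and 1.35 to 20.8% fell in these settings. With spike-in scaling rises also exceeded falls over all probes (20.8% and 1.35%), close to the shares of cDN23 (21.2% and 0.73%). For cDN24 the shares with that scaling were 26.6% and 1.01%. Against the S gonads of the first and of the second scan day, 23.4% and 20.3% of cDN23 probes rose and 5.48% and 3.20% fell, and for cDN24 23.6% and 22.1% rose and 5.61% and 4.26% fell. Of all probes 16.4% and 14.0% rose and 11.2% and 11.4% fell. In FF minus F, with no array in common, 19.4% of cDN23 probes rose and 1.74% fell, and 21.2% and 4.83% of cDN24 probes. There the shares of all probes were 15.1% and 9.41%. No test was made of a prefix against the rest of the array.

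**Figure D4:**
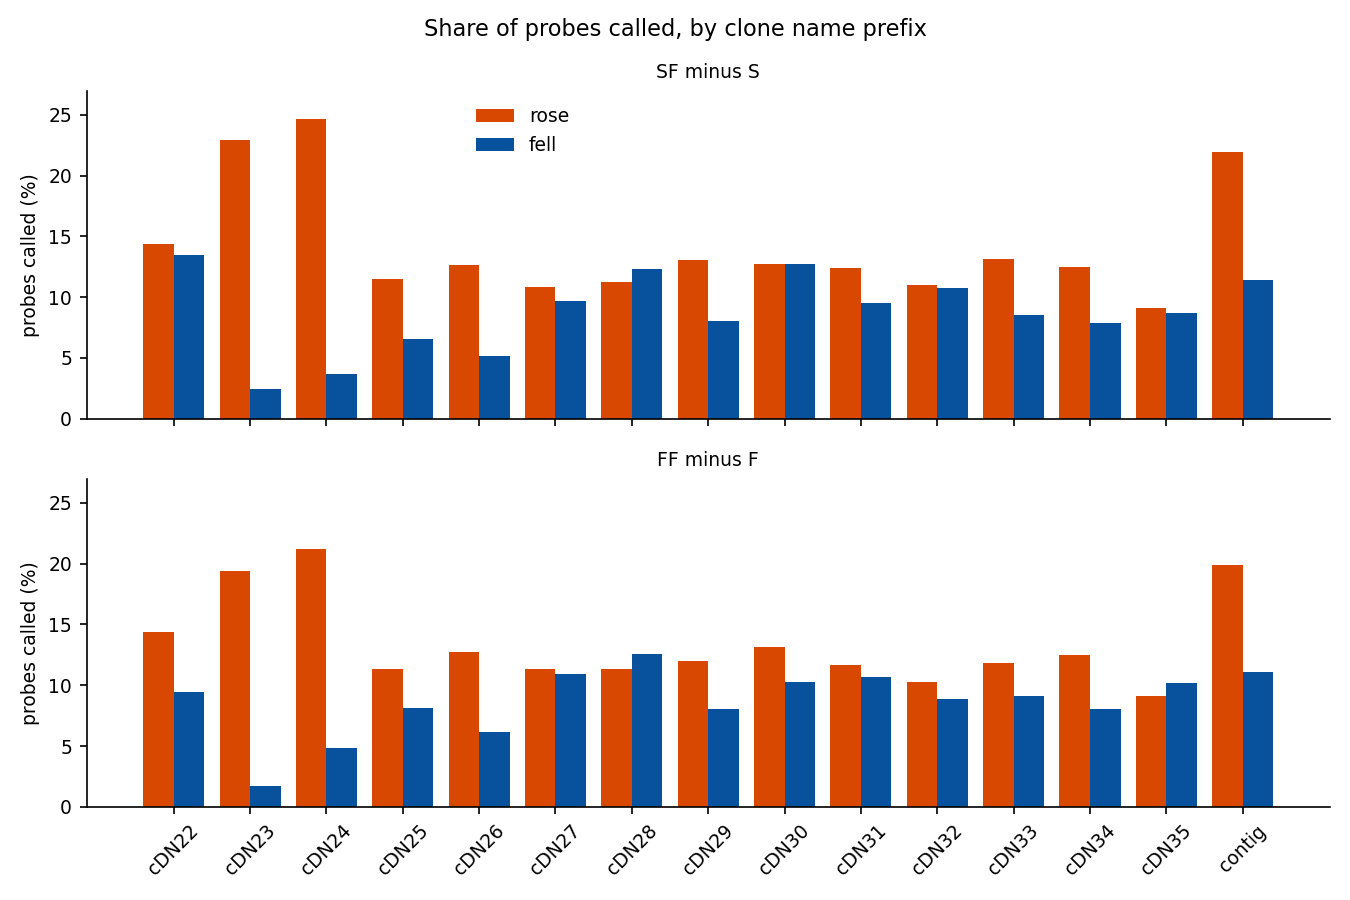
Share of probes called as rising (orange) and falling (blue), in percent of the probes of each clone name prefix and of the contigs, for SF minus S (upper panel) and FF minus F (lower panel). The 2 bars are furthest apart at cDN23 (22.9% and 2.47% above) and cDN24 (24.7% and 3.70% above), in both panels.

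Whether the change with age of slow fish was particular to them was asked against fast fish. FF minus F is the same interval in fish with a fast start and full rations throughout, measured on other arrays. The slides were partly shared: F5 to F7 lay on a slide with S1, and FF2 on a slide with S2 to S4. Scan day changed with age there, from the second day in F to the first in 4 of 5 FF arrays, and in FS minus F it changed for every array, so that day and age cannot be told apart within FS minus F and nearly so within FF minus F. In that pair limma called 5929 probes (24.5%), 3652 rising (15.1%) and 2277 falling (9.41%). Of the 3918 probes that rose from S to SF, 99.8% were also higher in FF than in F, against 51.0% of all probes, and 72.6% were called as rising there. These were 77.8% of the probes that rose from F to FF. Of the 2301 fallen probes, 99.7% were lower in FF than in F, against 49.0% of all probes, and 63.4% were called as falling, 64.1% of the falls from F to FF. None was called in opposite directions. These shares were lower for the 6659 probes called within the first scan day, where day did not change with age. Of the 3959 that rose, 97.5% were higher in FF than in F and 64.7% were called as rising, and of the 2700 that fell, 85.3% were lower and 39.1% were called as falling, with 2 and 8 called in the opposite direction. With scan day as a term in a fit of all 6 groups, 99.8% and 99.5% of these probes had the same sign in FF minus F, and 62.6% and 50.3% were called. Of all probes 49.2% were higher and 50.8% lower in FF in that fit, and 11.8% were called as rising and 7.31% as falling. That term rests on the S arrays and FF2 alone, so FF minus F is then no longer measured apart from S. Over the 24200 probes Pearson's r between the 2 changes was 0.899, a description across probes, which share arrays and are not independent.

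**Figure D5:**
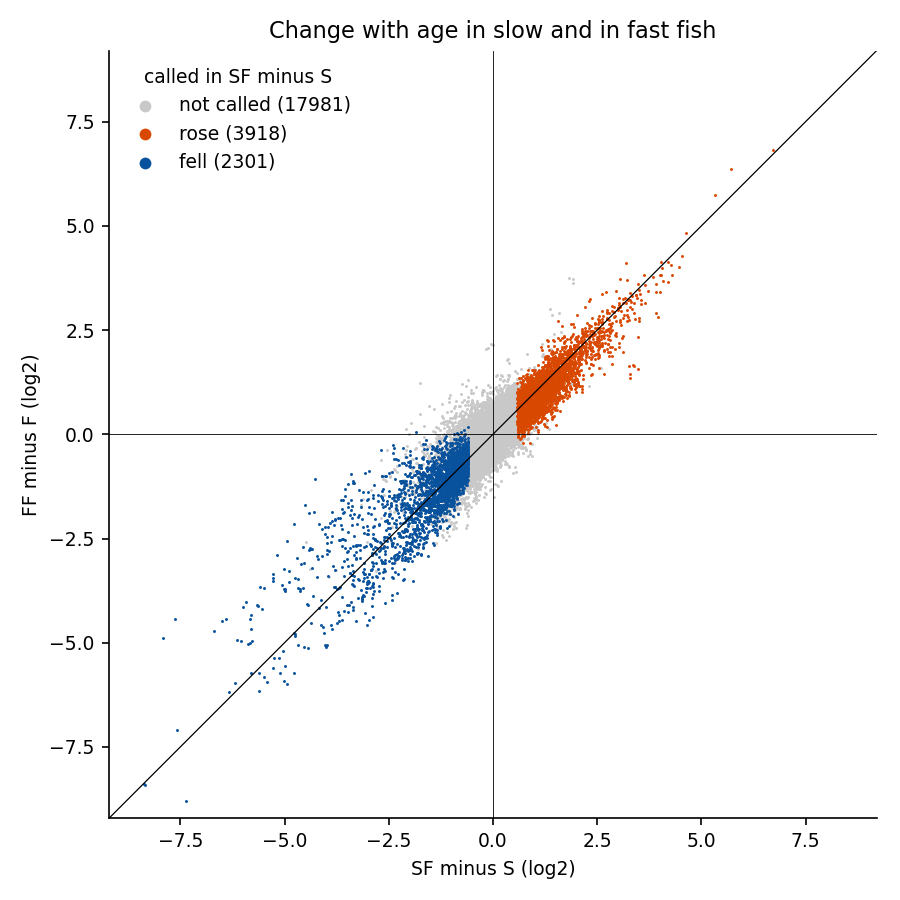
Change from F to FF (log2, vertical axis) against change from S to SF (log2, horizontal axis) for each of the 24200 probes, coloured by the call in SF minus S, with a line where both changes are equal. The cloud follows the line (r = 0.899 across probes), and 99.8% of the probes that rose and 99.7% of those that fell have the same sign on both axes.

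The difference between the 2 changes, (SF minus S) minus (FF minus F), was tested itself. No probe was called by limma (0 of 24200, 0%). The smallest adjusted p was 0.544, and 2212 probes had an unadjusted p below 0.05. With scan day as a fixed block, and with T1 arrays of the second day and T2 arrays of the first alone, it also called 0 probes (1516 and 953 at an unadjusted p below 0.05). This does not show that the changes were equal. At the 6219 probes called from S to SF, the 95% confidence interval of the difference lay within 2-fold for 64.5% and within 1.5-fold for 20.2%, and 638 had an unadjusted p under 0.05. For CUST_4507_PI416070213 the difference was 0.06 (95% confidence interval -0.62 to 0.74), for CUST_3784_PI415922062 -0.09 (-1.07 to 0.89) and for CUST_14589_PI416070213 0.02 (-1.20 to 1.24). CUST_4311_PI416070213 fell from S to SF and changed by -1.71 from F to FF (limma adjusted p = 0.0554), a difference of -2.81 with a wide interval (-5.38 to -0.23, limma adjusted p = 0.544).

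Against fast fish put on restricted food, the course of SF was less alike. FS minus F had 6222 calls (25.7%), 3564 rising (14.7%) and 2658 falling (11%). Of the probes that rose from S to SF, 92.5% were higher in FS than in F and 56.2% were called as rising there (61.8% of the rises from F to FS). Of those that fell, 95.2% were lower and 61.5% were called (53.2% of the falls from F to FS), and 1 probe was called in opposite directions. Of all probes 50.3% were higher in FS than in F and 49.7% lower. Of the probes called within the first scan day, 87.9% of those that rose and 79.7% of those that fell had the same sign from F to FS. With scan day as a term in the fit of all 6 groups these shares were 94.3% and 94.6%. In that fit 47.5% of all probes were higher in FS than in F and 52.5% lower. As said above, that term rests on the S arrays and FF2 alone. Pearson's r across probes was 0.7501. At the 80 probes that rose at least 8-fold from S to SF, the FS testes fell into 2 sets, with median levels of 10.64, 10.79 and 10.52 in FS1, FS2 and FS4 and of 12.35 and 12.09 in FS3 and FS5. SF testes lay between 12.18 and 12.65. FS5 lay on a slide with SF1 to SF3, and FS1 to FS4 together on another. The cDN23 probes divided the same testes, with 0.24, 0.37 and 0.40 relative to all probes in FS1, FS2 and FS4 and -0.33 and -0.36 in FS3 and FS5.

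In limma the difference (SF minus S) minus (FS minus F) was called at 1 probe of 24200 (0.00413%), with 6587 at an unadjusted p under 0.05. The probe, CUST_6480_PI416070213 of contig SeabassC-CL4242Contig1, was named after its value was seen. Its level was 11.19 ± 0.33 (SD, n = 8) in S and 11.67 ± 0.21 (SD, n = 5) in SF, a change of 0.48 (limma adjusted p = 0.0297) that did not reach 1.5-fold. From F (11.59 ± 0.13, SD, n = 7) to FS (10.66 ± 0.22, SD, n = 5) it fell by 0.93 (limma adjusted p = 8.26e-05). The difference was 1.41 (standard error 0.20, limma adjusted p = 0.0095), and the call did not hold in every fit. It was lost with scan day as a fixed block and with T1 arrays of the second day and T2 arrays of the first alone (0 calls each). With 1 array left out, the contrast had 0 calls when that array was any of the 7 F arrays, S1, S2, S5, S7, FS1, FS2, FS4, SF4 or SF5. Without SF1 it had 1 call, at another probe. Without FS3 the contrast had 1224 calls and without FS5 1367, and with array weights 6938. None of the 6219 probes called from S to SF was called here, and the interval of the difference lay within 2-fold for 39.5% of them.

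Slow fish put on restricted food at T1 started from the same S gonads. SS minus S and SF minus S thus share those arrays and are given side by side. SS minus S had 5606 calls (23.2%), 3370 rising (13.9%) and 2236 falling (9.24%), against 6219, 3918 and 2301 for SF. The difference between both courses is SF minus SS, where limma made 0 calls (0%). An unadjusted p below 0.05 was found at 4287 probes, and the smallest adjusted p was 0.0383. At the 6219 probes called from S to SF, the 95% confidence interval of SF minus SS lay within 2-fold for 84.2% and within 1.5-fold for 45.02%. For CUST_4507_PI416070213 the difference was 0.02 (-0.44 to 0.48), for CUST_3784_PI415922062 0.12 (-0.89 to 1.12), for CUST_14589_PI416070213 -0.51 (-1.23 to 0.20) and for CUST_4311_PI416070213 -0.16 (-0.41 to 0.08). The count and its direction were not stable. It was 71 without SS1 (8.45% of the calls higher in SF), 29 with the processed signal scaled to the 75th percentile (0% higher), 51 with the deposited matrix (84.3% higher), 64 in the fit of all 6 groups (1.56% higher) and 115 with array weights (18.3% higher). Relative to the 75th percentile of the array, the spike-in probes lay between 3.08 and 5.56 (log2) in SS and between -1.75 and -0.42 in SF. The part of this in the counts was not tested. SF4 and SF5 lay on a slide with SS1 and SS2, and with slide as a random block there were 0 calls.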

How the data were processed

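Gonadal RNA of each fish was labelled with Cy3 and hybridised to a custom 1-colour Agilent array. The authors deposited the scanner output of Agilent Feature Extraction (version 10.7.3.1 per the file headers, an older one in the study's text), in which the intensity of each spot and of its background is linear and not normalized between arrays, together with other columns, the flags of outlying, saturated and well-above-background spots. They also deposited a matrix of log2 values, made by normexp and quantile normalization per the study's methods.

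Here the median intensities were corrected with normexp (offset 50), 1417 control spots and all flagged spots were dropped, and quantile normalization was applied jointly to the 43803 sea bass spots of 35 arrays. Values were taken to log2 and summarised by the median over the spots of a probe. The matrix lay closer to the same steps with control spots kept (99.9% of values within 0.1) than to these values (98.3%). The study's rule for a reliable probe (foreground at least 2 times background for at least 0.5 of its spots), applied here as a filter asking for 0.5 of the arrays of S or of SF, removed 0 of 24200 probes. No spot of these arrays was saturated. Groups were compared with limma 3.58.1 in R 4.3.3 (lmFit, eBayes) without covariates, at the study's thresholds, 1.5-fold and adjusted p 0.01, and single values by exact permutation. The steps were tested on simulated data that held no effect of slide or scan day. A probe counts as well above background on an array when at least 0.5 of its unflagged spots do. Members, lists and tests were chosen with earlier results of these data known. The number of arrays limits the precision. Alternatives covered background correction, scaling, filters, fits, slide, scan day and each array left out. Replicate numbers follow the sample titles, which at T2 differ from numbers in the file names. The labels' extraction text gives a single age that is neither T1 nor T2, and the ages of the sample descriptions were used.

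Described by identifier were the called probe with the largest change among those well above background on all 13 arrays, with another probe of its target called the same way, and the called probe with the largest bound among those above background on every array of 1 group and none of the other, for rises and for falls.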

Additional observations from a re-analysis of the deposited data

Results flagged for a closer look

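Of 80 groups of values examined, 13 held a gonad whose gap to its nearest neighbour was larger than Dixon's 95% critical value allows, where chance gives about 1 in 20, or 4. The groups overlap in gonads and probes and are not independent. Among the gonads of this comparison, CUST_3784_PI415922062 was at 7.97 in S3 against 7.13 to 7.37 in the other S gonads. It was not well above background in any of them. The cDN23 probes lay at -0.65 in S6 relative to all probes, against -0.60 to -0.56 in the other S gonads. The cDN24 probes lay at 0.0113 in SF1, against -0.28 to -0.20 in the other SF testes.

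In the groups set beside them, CUST_4507_PI416070213 was at 11.15 in F1 and at 14.58 in SS3, and CUST_3784_PI415922062 at 8.83 in F3. CUST_14589_PI416070213 was at 12 in FF4, against 8.53 to 9.05 in the other FF testes, and at 9.85 in FS5. CUST_4311_PI416070213 was at 7.22 in FF5, 7.56 in FS2 and 7.69 in SS5. The 246 probes that fell at least 8-fold had a median of 8.25 in FS5, and the cDN24 probes -0.28 in FS3.

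The change with age of CUST_6480_PI416070213 differed by 1.41 (log2, limma adjusted p = 0.0095) between slow fish on full rations and fast fish on restricted food. The probe was named after its value was seen, and its call was lost in several fits, among them that with scan day as a fixed block.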

How the results depend on the processing

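The count from S to SF (6219, with 3918 rises and 2301 falls) moved by over 1.5 times with the processed signal scaled to the 75th percentile (9895, with 5041 falls), with 1 value per target (2905, with 1765 and 1140, of 11705 targets), with a fold change of at least 2 (3721, with 2165 rises), with treat, which tests against 1.5-fold (1962, with 1370 and 592), in falls with slide as a random block (1305) and with spike-in scaling (326). It also moved by over 1.5 times with a block for the replicate number, given next. In the other settings, leaving out each array included (5237 to 6234, lowest without SF5), it stayed within 1.5 times. As T2 fish were not those of T1, equal replicate numbers share only a number: with the replicate block on S1 to S5 and SF1 to SF5 the count was 3885 (2482 and 1403), against 5540 for these 10 arrays without it, and 1 of 5 same-numbered pairs correlated best with its own number (r from -0.19 to 0.29). For SF against SS the replicate block gave 0 calls. There 2 of 5 same-numbered pairs correlated best with their own number (r from -0.24 to 0.69, highest for SF1 and SS1). CUST_4311_PI416070213 was not called under the block (limma adjusted p = 0.0195). It was called in the 29 other settings, and the other 3 probes described were called in all 30. Their changes ranged from 3.60 to 5.47 (CUST_4507_PI416070213), 5.87 to 8.87 (bound, CUST_3784_PI415922062), -9.58 to -7.36 (CUST_14589_PI416070213) and -8.50 to -2.51 (bound, CUST_4311_PI416070213), in log2.

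The difference from FF minus F had 0 calls in all 37 settings. That from FS minus F had 0 calls with the 75th percentile, normexp offset 0, normexp on the foreground alone, the filter on dim probes, the slide block or either way of holding scan day apart (added after seeing the data), 239 in the fit of all 6 groups, 6938 with array weights, and 0 to 1367 with an array left out. SF against SS had 29 calls with the 75th percentile, 2 with offset 0, 51 with the deposited matrix, 64 in the fit of all 6 groups, 115 with array weights, and 0 to 71 with an array left out. The causes were not tested. The distance between S and SF had the same exact p, the smallest possible, with the 75th percentile (248.12) and the matrix (140.4), and lay between 137.42 and 143.9 with an array left out (largest exact p 0.00202). Dim probes limit what could be called.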
